A study of Mus musculus with 8 samples.

Results

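The pancreatic and foregut identity factors are *Gata4*, *Gata5*, *Gata6*, *Foxa1*, *Foxa2*, *Hnf4a*, *Pdx1* and *Sox9*. They were picked by gene symbol, with earlier results of these data known, and all 8 were found among the 53465 genes of the count table. All 8 also passed the filter on low counts that left 14301 genes for testing. The RNA-seq data were 8 libraries of B73 and B87, 2 mouse pancreatic ductal adenocarcinoma (PDAC) cell lines, made to follow the genes that answer to TGFβ and to the return of *Smad4*. The lines were grown on collagen from primary pancreatic tumors, and passaged before use, of a mouse model that carried Ptf1a-Cre, a Cre-activated Rosa26 allele of rtTA3 and mKate2, and a doxycycline (Dox)-driven, GFP-linked short hairpin RNA against *Smad4* at Col1a1. Ptf1a-Cre acts in pancreatic progenitors and acinar cells, and which of the study's hairpins each line carried is not given in the sources used here. Continued Dox gave the Smad4-off state, and 5 days without it gave the Smad4-on state. Each state was treated for 24 h with 100 pM TGFβ1 or with 2.5 µM SB505124, which inhibits the TGFβ type I receptor kinase. The 4 groups therefore held 1 library of each line. No group was left without either agent and no line with a control hairpin was analysed here, so an effect of TGFβ1 cannot be told apart from release of receptor inhibition, nor an effect of *Smad4* from that of Dox withdrawal.

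These factors bind DNA and set up the endoderm-derived organs. GATA zinc-finger proteins and the FOXA forkhead proteins can bind closed chromatin and prepare it for other factors, PDX1 is a homeodomain protein that the pancreas cannot form without, HNF4A is a nuclear receptor of liver, gut and pancreas, and SOX9 is an HMG-box protein of pancreatic progenitors and duct cells. In PDAC, GATA6, HNF4A, FOXA2 and PDX1 are known as marks of the classical, more differentiated tumor state. TGFβ binds its receptors, which phosphorylate SMAD2 and SMAD3, and SMAD4 joins these in the nucleus to regulate transcription.

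Total counts per library ran from 18389235 to 23440550, so 3 counts, taken as the floor of detection, correspond to 0.125 to 0.162 CPM (counts-per-million, scaled to the library size after TMM normalization). Intervals and floors of this kind cover counting error only. *Smad4*, the gene targeted by the hairpin, was 33.7 to 35.5 CPM in the 4 Smad4-off libraries and 97.4 to 117 CPM in the 4 Smad4-on libraries, so its level separated the states as labelled. The label of an epithelial tumor cell was checked against 8 epithelial markers. Their summed level was 1650 to 6200 CPM under SB505124 and 1170 to 5780 CPM under TGFβ1, lower in B87 than in B73 in every group, and *Epcam*, a defining epithelial marker, stayed at or below 2.11 CPM. All 7 endocrine hormone and granule markers, *Ins1*, *Ins2* and *Gcg* among them, had 0 counts in every library. Of 11 acinar enzyme genes, 7 had 0 counts in every library, and the list summed to 0.549 to 1.41 CPM. The leukocyte markers *Adgre1* and *Cd3e* and the fibroblast marker *Lum* were likewise at 0 in all libraries. Summed fibroblast markers were 0.817 to 2.23 CPM in B73 and 17.9 to 33.8 CPM in B87, carried by *Pdgfrb* and *Pdgfra*, and summed leukocyte and endothelial markers were 1.33 to 6.39 and 0.756 to 26.1 CPM. Their part in the results was not tested.

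All 8 factors were above the floor in every library. Levels between genes were compared per length, as CPM divided by the deposited gene length in kilobases (RPKM). By the median over 8 libraries, *Pdx1* was highest (27.9 RPKM), followed by *Foxa2* (25.8), *Hnf4a* (21.0), *Gata4* (14.5), *Sox9* (10.6), *Gata6* (6.64), *Gata5* (3.04) and *Foxa1* (1.44). The order changed with treatment. In Smad4-on cells under SB505124, *Pdx1* (52.8 ± 7.34 RPKM, SD, n = 2), *Hnf4a* (46.0 ± 20.6) and *Foxa2* (36.4 ± 1.04) led, and the values of *Hnf4a* overlapped those of both its neighbors in the order. In the same cells under TGFβ1, *Pdx1* (16.3 ± 0.490), *Sox9* (14.0 ± 3.29), *Gata4* (12.8 ± 1.99) and *Foxa2* (12.4 ± 2.76) led and each overlapped the next, while *Hnf4a* had fallen to 6.61 ± 2.81 RPKM. *Foxa1* was the lowest by its mean in all 4 groups. The place of *Gata6* depends on its length, since the deposited length of 3194 bases is shorter than the 6508 bases of its exons in GENCODE M21, which would give a median of 3.26 RPKM. For the other 7 genes the lengths were equal.

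**Figure D1:**
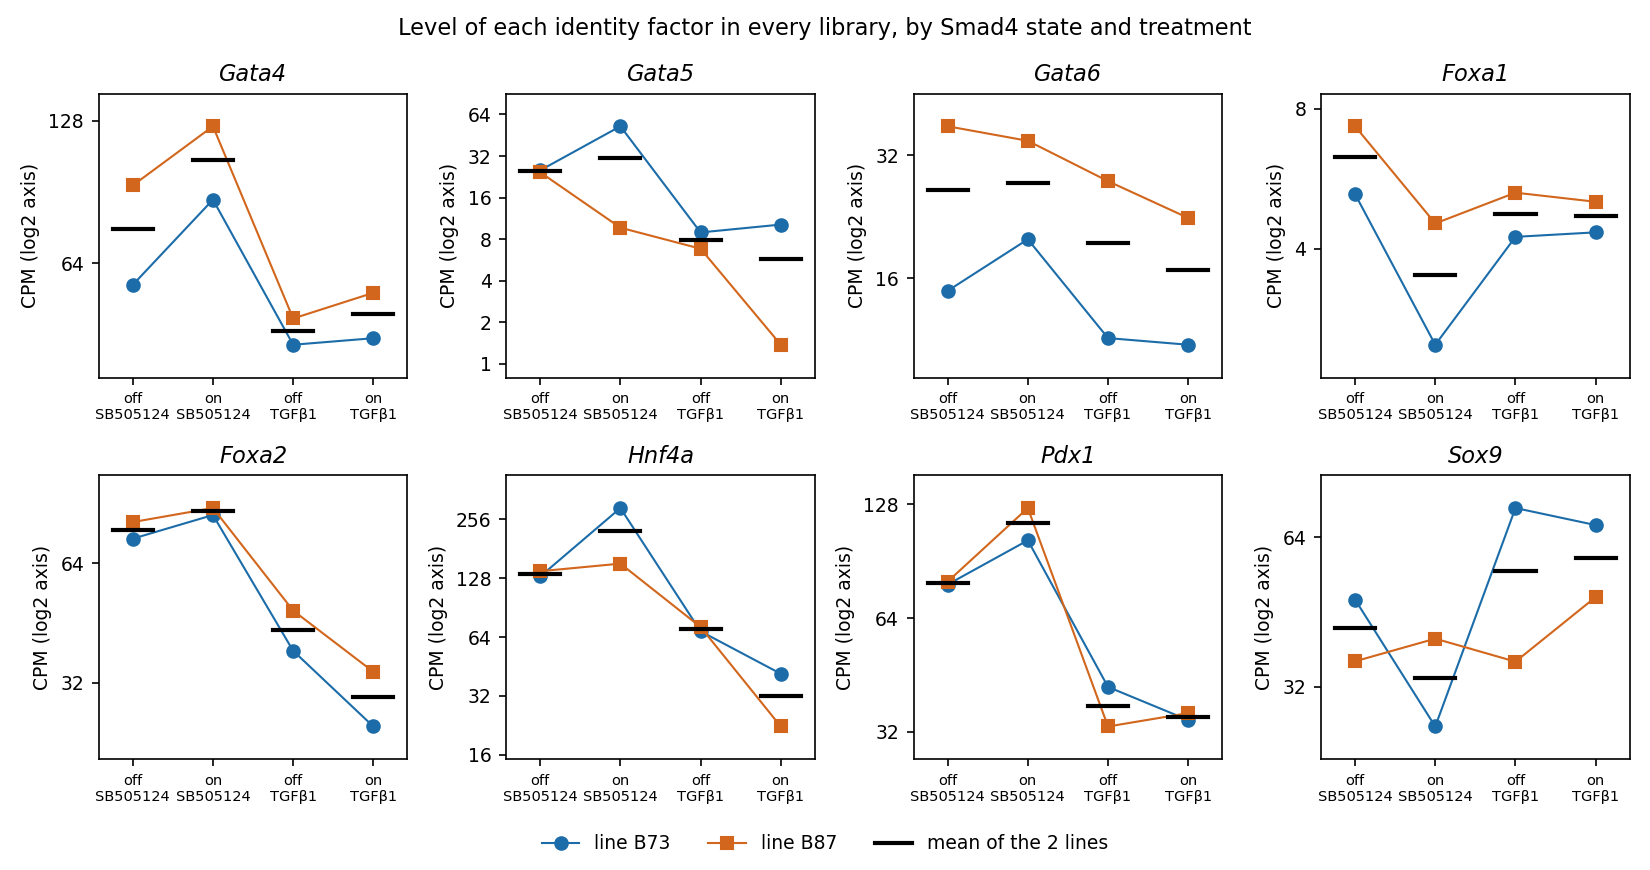
Level of each factor in CPM on a log2 axis in the 8 libraries, by *Smad4* state and treatment. Circles are line B73, squares line B87 and bars the mean of the 2 lines. *Gata4*, *Foxa2*, *Hnf4a* and *Pdx1* are lower in all 4 TGFβ1 libraries than in all 4 SB505124 libraries, and the share of all tested genes with such a separation was not counted.

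Most calls among the 8 factors were with TGFβ1. In Smad4-on cells, *Gata4*, *Gata5*, *Foxa2*, *Hnf4a* and *Pdx1* were called lower with TGFβ1 than with SB505124, which is 5 of 8, whereas 8.31% of all tested genes were called lower and 5.62% higher. A gene was called at an adjusted p under 0.05, by the quasi-likelihood test of edgeR with Benjamini-Hochberg adjustment over all tested genes, together with a change over 2-fold. The median log2 fold change was -1.32 over the 8 factors and -0.02 over all tested genes. In Smad4-off cells, *Pdx1* was the 1 factor called lower, beside 2.82% of all tested genes called lower and 3.11% called higher, and the median over the 8 was -0.76. Both comparisons gave the same sign in the 2 lines for every factor other than *Sox9* in Smad4-off cells. Without the fold rule, 6 of 8 had an edgeR adjusted p under 0.05 with *Smad4* on and 3 of 8 with it off. EdgeR called the difference between these 2 responses for 0 of 8, beside 0.189% of all tested genes. The falls did not start from a like level. By their means, all 5 factors were higher under SB505124 with *Smad4* on, such as *Gata4* (106 against 75.5 CPM) and *Pdx1* (114 against 79.2 CPM). In bulk samples, fewer cells that express a gene and less RNA of it per cell cannot be told apart.

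**Figure D2:**
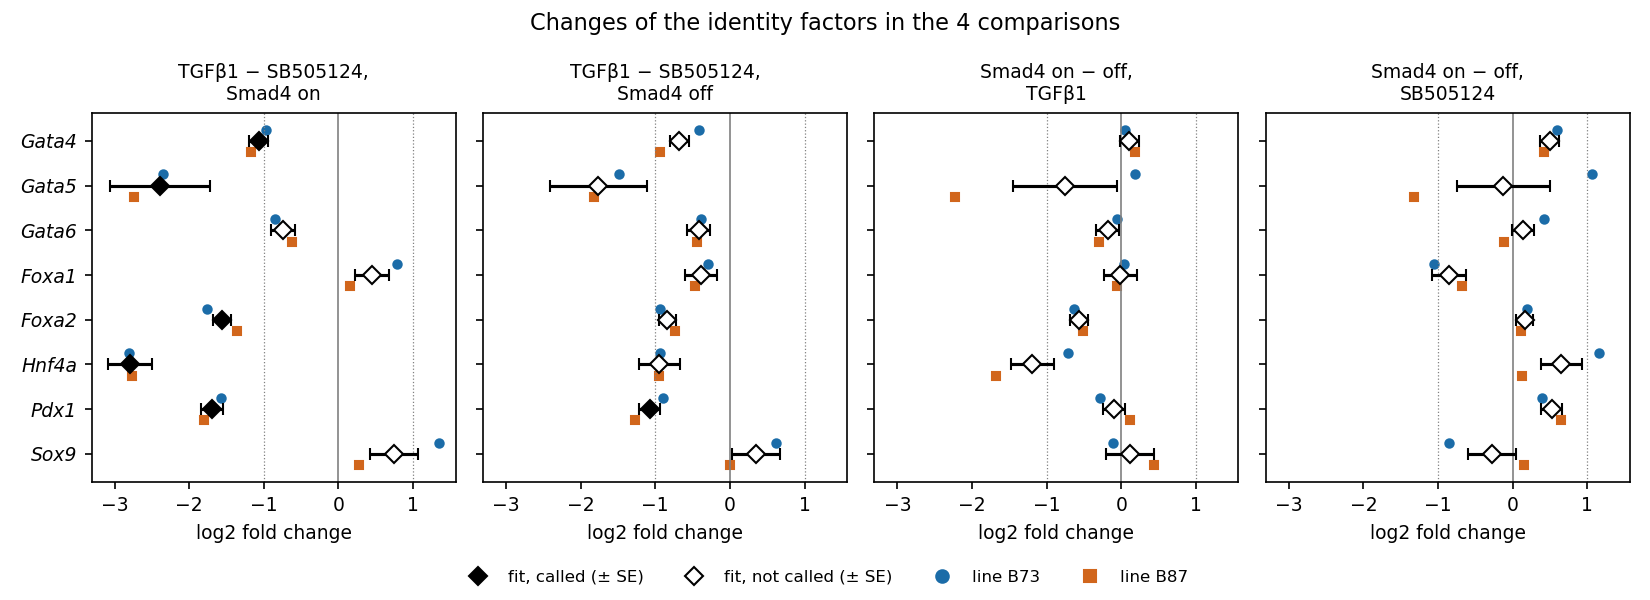
Log2 fold change of the 8 factors in the 4 comparisons. Diamonds are the edgeR fit with its standard error (filled where called), circles and squares the lines B73 and B87, and dotted lines mark 2-fold; the 5 filled diamonds of Smad4-on cells lie between -2.79 and -1.07.

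*Hnf4a* (ENSMUSG00000017950; GRCm38 chromosome 2, 163506808 to 163572910, plus strand) had the largest fitted fall of the 8 in Smad4-on cells. Under SB505124 it stood at 131 CPM (B73) and 139 CPM (B87) in Smad4-off cells, and 292 and 152 CPM in Smad4-on cells. Under TGFβ1 it was 68.5 and 72.0 CPM in Smad4-off cells, and 41.5 and 22.3 CPM in Smad4-on cells. All TGFβ1 values thus lay below all SB505124 values, and B73 with *Smad4* on under SB505124 stood highest. With *Smad4* on, TGFβ1 left 14.2% of the SB505124 level in B73 and 14.7% in B87, -2.79 ± 0.296 on the log2 scale (SE, by edgeR, adjusted p 0.000761). With *Smad4* off it left 52.4% and 51.8% (-0.94 ± 0.277, edgeR adjusted p 0.0696). The *Smad4* effect on *Hnf4a* was therefore of opposite sign in the 2 treatments. It was 0.65 ± 0.274 under SB505124 (edgeR adjusted p 0.395) and -1.20 ± 0.288 under TGFβ1 (edgeR adjusted p 0.0558), neither of which passed. The difference between these effects was -1.85 ± 0.395, close to the -1.88 of B73 and the -1.81 of B87, and did not pass in edgeR (p 0.00233, adjusted p 0.182). DESeq2 with the line in its model called both the fall with *Smad4* on under TGFβ1 (-1.20, DESeq2 adjusted p 0.000411) and the difference (-1.85, DESeq2 adjusted p 4e-04). Over all tested genes, DESeq2 called 504 and 134 in these 2 comparisons, where edgeR called 446 and 27.

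*Hnf4a* has an upstream and a downstream start, known as P2 and P1, which the counts per gene do not separate. Both windows are shown because of this fall in Smad4-on cells. Each runs from 250 bases before a RefSeq start to 50 bases from that start on (GRCm38.p6, plus strand, chr2:163506607-163506906 and chr2:163546905-163547204). Capitals mark the GATA motif AGATAA in the first, 52 bases before the start, and in the second the homeobox motif TAATTA and the HNF1 motif GTTAAT, read there on the minus strand as ATTAAC at 81 and 74 bases before the start. Of all 32851 windows of this length, 11.2% held AGATAA, 5.29% TAATTA and 7.10% GTTAAT on either strand.
*Hnf4a* upstream window: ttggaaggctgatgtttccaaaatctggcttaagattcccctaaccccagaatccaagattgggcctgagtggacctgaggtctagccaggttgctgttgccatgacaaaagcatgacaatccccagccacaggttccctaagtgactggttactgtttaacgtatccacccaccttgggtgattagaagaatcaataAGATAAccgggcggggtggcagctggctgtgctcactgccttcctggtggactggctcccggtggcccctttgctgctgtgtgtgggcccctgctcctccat
*Hnf4a* downstream window: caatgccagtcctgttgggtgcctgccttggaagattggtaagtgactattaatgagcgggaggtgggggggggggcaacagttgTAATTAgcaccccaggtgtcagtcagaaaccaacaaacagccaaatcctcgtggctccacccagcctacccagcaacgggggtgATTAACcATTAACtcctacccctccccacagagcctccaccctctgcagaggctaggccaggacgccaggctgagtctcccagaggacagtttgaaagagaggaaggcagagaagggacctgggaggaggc

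*Pdx1* (ENSMUSG00000029644; chromosome 5, 147269959 to 147275848, plus strand) was the 1 factor called in both *Smad4* states. Under SB505124, B73 had 78.5 CPM and B87 79.9 CPM with *Smad4* off, and 103 and 125 CPM with *Smad4* on. Under TGFβ1 it was 42.0 and 33.0 CPM with *Smad4* off, and 34.4 and 35.8 CPM with *Smad4* on. The 4 TGFβ1 values did not overlap the 4 SB505124 values, and with *Smad4* on the lines were within 2 CPM of each other under TGFβ1 (SD 1.06 CPM). The log2 fold change with TGFβ1 was -1.70 ± 0.147 in Smad4-on cells (SE, edgeR adjusted p 0.000347) and -1.08 ± 0.145 in Smad4-off cells (edgeR adjusted p 0.00538). The latter fell to -0.84 without B87 with *Smad4* off under TGFβ1, which is less than 2-fold. Under SB505124 *Pdx1* was 0.53 ± 0.141 higher on the log2 scale with *Smad4* on and the groups did not overlap, but it did not pass (edgeR adjusted p 0.166). *Plut*, a noncoding gene on the opposite strand that overlaps the 5′ end of *Pdx1*, had 68 to 241 counts, against 663 to 3009 for *Pdx1*. *Plut* was called lower with TGFβ1 in Smad4-on cells (-1.10 ± 0.246, edgeR adjusted p 0.0149). The kit marked the strand but the strand setting of the counting was not given, so reads of the 2 genes may be mixed. The *Pdx1* window (chr5:147269847-147270146, plus strand) is shown because both genes of this locus fell, and none of the 9 motifs searched was found in it.
*Pdx1* window: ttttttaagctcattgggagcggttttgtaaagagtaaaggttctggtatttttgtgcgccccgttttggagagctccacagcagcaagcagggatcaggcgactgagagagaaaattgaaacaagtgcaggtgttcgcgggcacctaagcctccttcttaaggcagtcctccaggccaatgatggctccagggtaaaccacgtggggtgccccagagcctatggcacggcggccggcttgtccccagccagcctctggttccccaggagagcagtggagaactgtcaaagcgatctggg

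*Foxa2* (ENSMUSG00000037025, chromosome 2, 148042877 to 148046969, minus strand) was lower with TGFβ1 in both *Smad4* states. Its level in B73 and B87 was 73.7 and 81.2 CPM (Smad4 off) and 84.6 and 88.1 CPM (Smad4 on) under SB505124. Under TGFβ1 it was 38.5 and 48.6 CPM (Smad4 off) and 24.9 and 34.1 CPM (Smad4 on). None of the 4 groups, of 2 libraries each, overlapped another, and the Smad4-on cells were the highest under SB505124 and the lowest under TGFβ1. Under SB505124 the *Smad4* effect was small and did not pass (0.16 ± 0.113 on the log2 scale, edgeR adjusted p 0.631). The log2 fold change with TGFβ1 was -1.56 ± 0.118 in Smad4-on cells (SE, edgeR adjusted p 0.000229), the lowest adjusted p of the 8 factors, and -0.84 ± 0.115 in Smad4-off cells (edgeR adjusted p 0.00567), less than 2-fold. With *Smad4* on under TGFβ1, *Foxa2* was 0.57 ± 0.117 lower on the log2 scale, in both lines (edgeR adjusted p 0.0371), again less than 2-fold. The difference between treatments in the *Smad4* effect was -0.73 ± 0.163 and did not pass (edgeR adjusted p 0.194). RefSeq gives *Foxa2* 3 starts, and the window at the start of the deposited gene (chr2:148046920-148047219, minus strand) is shown. Its capitals mark a SMAD motif, CAGAC, 17 bases after the start, which 49.6% of all windows held. Of the windows of the other starts, which are not shown, 1 held none of the 9 motifs, and the other held the GATA motif AGATAA and the HNF1 motif GTTAAT and 2 matches of the SOX motif ACAAAG, which 18.7% of all windows held.
*Foxa2* window: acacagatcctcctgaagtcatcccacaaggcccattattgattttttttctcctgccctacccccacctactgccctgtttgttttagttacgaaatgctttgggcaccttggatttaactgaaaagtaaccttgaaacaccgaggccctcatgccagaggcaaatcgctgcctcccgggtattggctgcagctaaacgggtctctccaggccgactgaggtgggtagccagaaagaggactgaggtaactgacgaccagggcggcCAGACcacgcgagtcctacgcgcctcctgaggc

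The related forkhead gene *Foxa1* (ENSMUSG00000035451; chromosome 12, 57540628 to 57546916, minus strand) was low and behaved otherwise. Its level was 5.24 and 7.34 CPM with *Smad4* off under SB505124, and 2.49 and 4.53 CPM with *Smad4* on. Under TGFβ1 it was 4.24 and 5.28 CPM with *Smad4* off, and 4.34 and 5.05 CPM with *Smad4* on. The lowest value was that of B73 with *Smad4* on under SB505124, and this group overlapped the Smad4-on group under TGFβ1. Counts ran from 46 to 167 per library. The *Smad4* effect of -0.85 ± 0.223 under SB505124 did not pass (edgeR adjusted p 0.155), nor did the changes with TGFβ1 of 0.45 ± 0.227 in Smad4-on cells (edgeR adjusted p 0.173) and -0.39 ± 0.218 in Smad4-off cells (edgeR adjusted p 0.294). Of the remaining FOXA member, *Foxa3*, each library had between 0 and 5 counts, below the filter.

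Among the GATA factors, *Gata4* (ENSMUSG00000021944; chromosome 14, 63198922 to 63271692, minus strand) was the most abundant per length. In B73 and B87, its level under SB505124 was 57.6 and 93.4 CPM with *Smad4* off, and 87.2 and 124 CPM with *Smad4* on. Under TGFβ1 it was 43.1 and 48.9 CPM with *Smad4* off, and 44.5 and 55.4 CPM with *Smad4* on. The SD between the lines was 25.3 and 26.4 CPM under SB505124, with *Smad4* off and on, and 4.14 and 7.75 CPM under TGFβ1, and the *Smad4* states overlapped in both treatments. The fall with TGFβ1 was -1.07 ± 0.130 in Smad4-on cells (SE, edgeR adjusted p 0.00131) and -0.68 ± 0.129 in Smad4-off cells (edgeR adjusted p 0.0182), less than 2-fold. In Smad4-on cells the size was just past 2-fold, and it was -0.99 without B87 under TGFβ1. Under SB505124, *Gata4* was 0.50 ± 0.127 higher with *Smad4* on, in both lines, and did not pass (edgeR adjusted p 0.149).

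*Gata5* (ENSMUSG00000015627; chromosome 2, 180325133 to 180334699, minus strand) varied most, over a 38.2-fold range. Under SB505124 it was 25.2 (B73) and 24.4 (B87) CPM with *Smad4* off, and 52.6 and 9.69 CPM with *Smad4* on. Under TGFβ1 it was 8.96 and 6.83 CPM with *Smad4* off, and 10.2 and 1.38 CPM with *Smad4* on. The lines were close with *Smad4* off and far apart with *Smad4* on, where the B87 library under TGFβ1 had 27 counts. TGFβ1 left 19.4% (B73) and 14.2% (B87) of the SB505124 level with *Smad4* on, and 35.5% and 27.9% with *Smad4* off. The call in Smad4-on cells (-2.39 ± 0.668, SE, edgeR adjusted p 0.0324) was lost without B73 under SB505124 (-1.39, adjusted p 0.259) or without B87 under TGFβ1 (-1.82, adjusted p 0.119). In Smad4-off cells the fall of -1.77 ± 0.648 did not pass (edgeR adjusted p 0.128). *Gata5os*, which overlaps *Gata5* on the opposite strand, had at most 29 counts. The *Gata5* window (chr2:180334630-180334929, minus strand), shown because the *Smad4* effect on this gene differed most between the lines, held none of the 9 motifs.
*Gata5* window: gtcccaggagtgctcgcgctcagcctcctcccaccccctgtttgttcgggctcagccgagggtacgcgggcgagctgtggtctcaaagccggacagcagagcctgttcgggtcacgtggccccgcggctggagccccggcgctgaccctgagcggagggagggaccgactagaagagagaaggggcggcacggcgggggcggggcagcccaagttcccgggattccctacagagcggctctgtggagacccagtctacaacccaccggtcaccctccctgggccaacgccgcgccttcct

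*Gata6* (ENSMUSG00000005836; chromosome 18, 11052510 to 11085635, plus strand) was set apart by the cell line. In B73 it was 14.9 and 19.9 CPM under SB505124 and 11.4 and 11.02 CPM under TGFβ1, with *Smad4* off and on in turn. In B87 it was 37.6 and 34.7 CPM under SB505124 and 27.7 and 22.5 CPM under TGFβ1. Every B87 value was above every B73 value. The difference of 1.11 ± 0.110 on the log2 scale (SE, edgeR adjusted p 0.000912) made *Gata6* the 1 factor called between the lines, where 8.37% of all tested genes were called. The labels name no separate cultures within a line, so a difference between lines cannot be told apart from one between the cultures used. *Gata6* was lower with TGFβ1 in Smad4-on cells by an amount under 2-fold (-0.74 ± 0.156, edgeR adjusted p 0.0115), and in Smad4-off cells it did not pass (-0.42 ± 0.153, edgeR adjusted p 0.127).

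*Sox9* (ENSMUSG00000000567; chromosome 11, 112782224 to 112787760, plus strand) was the 1 abundant factor with a positive change with TGFβ1. In B73 it was 47.9 and 26.6 CPM under SB505124 and 73.3 and 67.7 CPM under TGFβ1, with *Smad4* off and on. In B87 it was 36.0 and 40.0 CPM under SB505124 and 35.9 and 48.5 CPM under TGFβ1. With *Smad4* on, both TGFβ1 values were above both SB505124 values, with a large difference in B73 (a log2 fold change of 1.35) and a small one in B87 (0.28). The fit gave 0.74 ± 0.324 in Smad4-on cells (SE, edgeR adjusted p 0.124) and 0.35 ± 0.319 in Smad4-off cells (edgeR adjusted p 0.525), and neither passed. Without B87 with *Smad4* on under SB505124, *Sox9* was called higher with TGFβ1 in Smad4-on cells (1.42, edgeR adjusted p 0.0104).

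*Smad4* restoration by itself gave no call among the 8 factors. Under TGFβ1, edgeR called 0 of 8, beside 3.12% of all tested genes, and 2 of the 8 and 3396 of all tested genes had an unadjusted p under 0.05. DESeq2 called 1 of the 8, *Hnf4a*, beside 504 of all tested genes. Under SB505124, edgeR called 0 of 8, beside 1.09% of all tested genes, and 4 of the 8 and 1809 of all tested genes had an unadjusted p under 0.05. DESeq2 called 0 of the 8, beside 212 of all tested genes. The median *Smad4* effect over the 8 was -0.14 under TGFβ1 and 0.15 under SB505124. For the difference between these effects, edgeR called 0 of 8, beside 0.189% of all tested genes, while 4 of the 8 and 1493 of all tested genes had an unadjusted p under 0.05. Of the 8, DESeq2 called *Hnf4a* alone, beside 134 of all tested genes, where edgeR called 27. The difference was negative for 6 of 8, namely all but *Foxa1* and *Sox9*, and had the same sign in both lines for all 8. It was -0.62 ± 0.203 for *Pdx1* (SE, edgeR p 0.0182, adjusted p 0.328) and 0.84 ± 0.314 for *Foxa1* (edgeR p 0.0323, adjusted p 0.41).

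The *Smad4* effect differed between the lines for *Gata5* and *Hnf4a*, 2 of 8 called beside 0.392% of all tested genes. For *Gata5* it was 1.06 in B73 and -1.33 in B87 under SB505124, and 0.19 and -2.23 under TGFβ1, on the log2 scale. Averaged over treatments, the effect in B87 minus that in B73 was -2.38 ± 0.229 (SE, edgeR adjusted p 0.0207). For *Hnf4a* it was 1.16 in B73 and 0.13 in B87 under SB505124, and -0.72 and -1.69 under TGFβ1, so that B87 was shifted downward by a like amount in each treatment (-1.003 ± 0.112, edgeR adjusted p 0.0329). This value lay at the 2-fold limit. For *Smad4* itself the line difference in this effect was 0.06 ± 0.134 and did not pass (edgeR adjusted p 0.936). For the response to TGFβ1, edgeR called a line difference in 0 of 8 factors and in 0% of all tested genes. Of the 8, 2 had an unadjusted p under 0.05 and DESeq2 called 0, and over all genes 1198 had an unadjusted p under 0.05 and DESeq2 called 25.

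**Figure D3:**
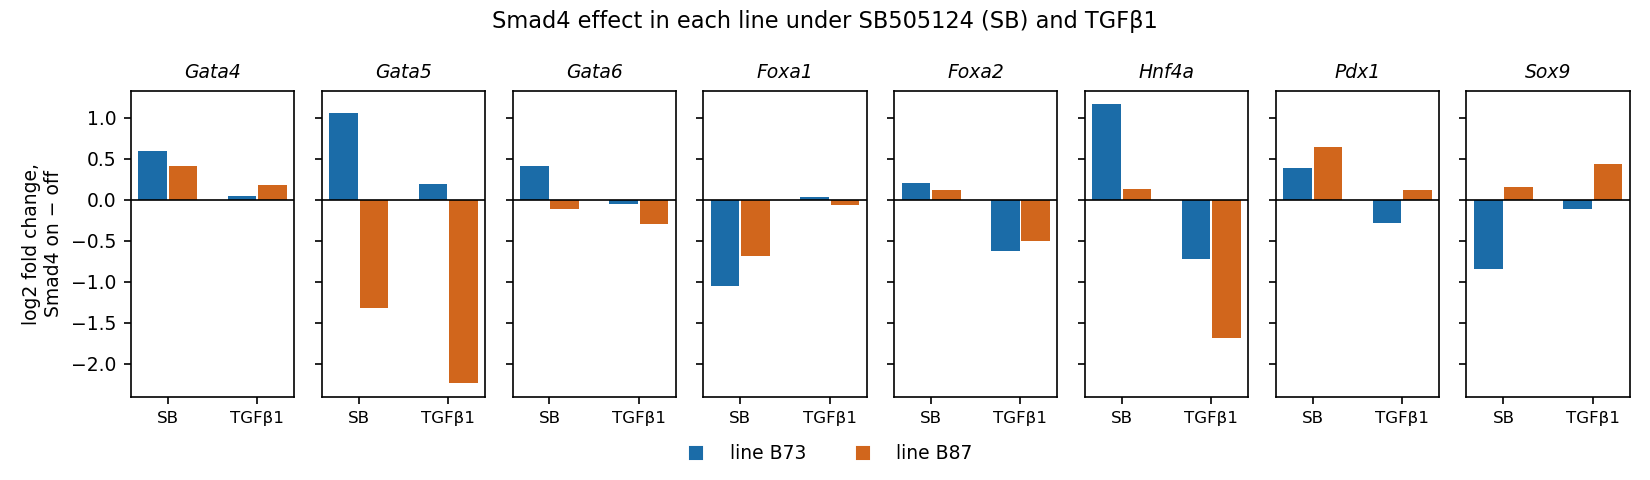
*Smad4* effect (Smad4 on minus off, log2 fold change of CPM) on each factor in each line, 1 bar per line, under SB505124 (SB) and TGFβ1. *Gata5* has bars of opposite sign in B73 and B87, and for *Hnf4a* the B87 bar lies below the B73 bar in both treatments.

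Across the 8 libraries the 6 factors *Gata4*, *Gata5*, *Gata6*, *Foxa2*, *Hnf4a* and *Pdx1* varied together. Pearson correlations of log2 CPM, centred on the mean of each line, ran among them from 0.73 (*Gata4* with *Gata5*) to 0.971 (*Gata4* with *Pdx1*), with 0.968 for *Gata6* with *Hnf4a*. *Sox9* was negatively related to all 6, from -0.855 (*Gata6*) to -0.605 (*Pdx1*), and *Foxa1* was related to them by -0.362 to -0.039. The points share 2 lines and 4 conditions, so these values describe the shared response and are given without a test. Of 11099 genes with a mean log2 CPM of at least 1, the most alike to *Hnf4a* were *Sult2b1* (r = 0.998), *Nr1h4* (0.995) and *Zbtb48* (0.993), over 8 libraries. To *Pdx1* they were *Rasl11a* (0.997), *Otud1* (0.995) and *Gm27033* (0.994), and to *Foxa2* they were *Mlec* (0.999), *Cpne2* (0.998) and *Phka2* (0.996). For *Gata4* they were *Tnfrsf1a* (0.995), *Klf5* and *Btc* (both 0.993), for *Gata6* *Mrpl27* (0.994), *Aqp5* (0.993) and *Acsl5* (0.991), and for *Gata5* *Zfp961* (0.989), *Exoc6* (0.984) and *Spint2* (0.98). The nearest to *Sox9* were *St6galnac4* (0.964), *Ppp1r16a* (0.959) and *Ifnar2* (0.951), and to *Foxa1* *Churc1* (0.957), *Pcm1* (0.953) and *Spns2* (0.95).

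Other factors of the same families and organs were followed as lists. Of 13 other liver-enriched and gut endoderm factors, 9 were tested and 7 of these were called lower with TGFβ1 in Smad4-on cells, against 2 in Smad4-off cells. *Nr1h4*, the bile acid receptor FXR, was 7.78 (B73) and 6.61 (B87) CPM with *Smad4* on under SB505124, and 0.766 and 0.51 CPM under TGFβ1 (-3.49 ± 0.406, edgeR adjusted p 0.00111). *Cebpa*, which encodes a bZIP factor of liver and fat, also fell (log2 fold change -2.63, edgeR adjusted p 0.00901), as did *Onecut3* (-1.86, adjusted p 0.0197) and *Hhex*, a homeobox gene of the early foregut (-1.33, adjusted p 0.00358). *Hhex* was also the 1 gene of this list called lower with *Smad4* on under TGFβ1 (-1.07 ± 0.208, edgeR adjusted p 0.0312). The list median was -1.88 with *Smad4* on and -0.84 with it off. With *Nr0b2*, which had 0 counts in both Smad4-on libraries under TGFβ1, set at its bound, the list median in Smad4-on cells was -1.87. *Hnf4g*, the close relative of *Hnf4a*, had 2 to 78 counts and was called lower with TGFβ1 in Smad4-on and Smad4-off cells (-3.11 and -1.74, edgeR adjusted p 0.00273 and 0.0434).

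Of 15 stomach, lung and intestinal factors, 10 were tested, 6 of which were called lower with TGFβ1 in Smad4-on cells and 3 in Smad4-off cells. *Cdx2*, the intestinal homeobox gene, was 109 (B73) and 64.2 (B87) CPM under SB505124 and 31.0 and 16.7 CPM under TGFβ1 with *Smad4* on (-1.87 ± 0.119, edgeR adjusted p 0.000128). *Meis2*, which encodes a homeodomain cofactor (-1.31 ± 0.107, edgeR adjusted p 0.000285), and *Foxq1*, a forkhead gene (-1.29 ± 0.265, adjusted p 0.0108), also fell. The median of this list was -1.24 with *Smad4* on and -0.59 with it off, beside -0.02 over all tested genes in each.

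Other members of the GATA and SOX families were tested as well. Of the 5 tested of 6 GATA, FOG and related genes, *Gata3* was the 1 called with TGFβ1, and it rose in both states (1.20 ± 0.278, edgeR adjusted p 0.0169, with *Smad4* on and 1.27 ± 0.286, adjusted p 0.0308, with *Smad4* off). Its level stayed at 1.80 to 8.26 CPM. *Gata1* had 0 counts in every library, and *Gata2* was 4.85 to 9.68 CPM in B73 and 0.439 to 1.78 CPM in B87, lower in B87 (-2.94 ± 0.445, edgeR adjusted p 0.00516). *Zfpm1*, which encodes the GATA cofactor FOG1, was at 44.6 to 110 CPM and was lower with TGFβ1 in Smad4-on cells by less than 2-fold (-0.81 ± 0.102, edgeR adjusted p 0.00161). *Zfpm2*, the other FOG gene, went the other way in the same comparison, also by less than 2-fold (0.97 ± 0.126, edgeR adjusted p 0.00174). Of 7 tested SOX genes, *Sox4* rose with TGFβ1 in both states, with 27.1 (B73) and 30.2 (B87) CPM under SB505124 and 184 and 180 CPM under TGFβ1 with *Smad4* on (2.66 ± 0.185, edgeR adjusted p 0.000176), and *Sox12* fell in Smad4-on cells (-1.46 ± 0.344, adjusted p 0.0176). *Sox8* and *Sox10*, the closest relatives of *Sox9*, had at most 2 and 1 counts.

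The 15 endocrine lineage factors summed to 7.96 to 27.8 CPM in B73 and 0.498 to 1.12 CPM in B87. Of these, 4 were tested and were not called with TGFβ1 in edgeR. *Pax6*, the most abundant by its mean, was 5.82 to 14.6 CPM in B73 and 0.149 to 0.561 CPM in B87 (-4.55 ± 0.38, edgeR adjusted p 0.000427). *Insm1*, a zinc-finger gene of endocrine cells, was 11.3 and 5.27 CPM in B73 with *Smad4* off under SB505124 and TGFβ1, and at most 0.571 CPM in the other 6 libraries. Its *Smad4* effect did not pass (-3.59 ± 0.846, edgeR adjusted p 0.121, under SB505124 and -3.87 ± 0.99, adjusted p 0.0667, under TGFβ1). The 5 acinar factors, *Ptf1a* (0 counts) among them, summed to at most 0.351 CPM and could not be tested.

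Genes of the tissues in which the 8 factors act were counted beside them. Of 17 tested gastric and classical PDAC genes, 11 were called lower with TGFβ1 in Smad4-on cells and 7 in Smad4-off cells. The list medians were -3.47 and -1.12. For *Smad4* on against off, the median of this list was 1.07 in the SB505124 groups, with 4 calls up and 0 down. In the TGFβ1 groups it was -0.005, with 3 up and 2 down. The 2 falls with TGFβ1 therefore did not start from a like level. *Vsig1*, an adhesion protein gene of stomach epithelium, fell with TGFβ1 in Smad4-on cells (log2 fold change -4.81, edgeR adjusted p 0.000564), and so did *Lgals4* (-3.56, adjusted p 0.000662) and *Tspan8* (-3.42, adjusted p 0.000109). The other 6 genes were not called. Some had higher means with TGFβ1, such as *Ctse* (7.76 ± 5.91 to 23.9 ± 25.4 CPM, SD, n = 2) and *Krt20* (12.6 ± 17.5 to 14.7 ± 19.6 CPM). *Ctse* was called higher with *Smad4* on under TGFβ1 (4.26, edgeR adjusted p 0.0111) and under SB505124 (4.22, adjusted p 0.0388). Of 16 tested duct cell genes, TGFβ1 gave 6 calls lower and 1 higher with *Smad4* on, and 3 lower and 3 higher with *Smad4* off. Their medians were -0.54 and -0.31. *Aqp1* (-3.73 ± 0.567, edgeR adjusted p 0.00319) and *Cftr*, the duct chloride channel (-3.18 ± 0.519, adjusted p 0.00427), were among the former. The epithelial markers *Krt19* (-2.33 ± 0.215, edgeR adjusted p 0.000454) and *Cdh1* (-2.31 ± 0.458, adjusted p 0.00936) fell in the same comparison, while *Krt8* and *Krt18* had log2 fold changes of 0.20 and 0.52 and were not called. *Cldn4*, a tight junction gene of the same 8 markers, was called higher. It had 0 counts in all 4 SB505124 libraries, and under TGFβ1 it was 46.2 (B73) and 3.26 (B87) CPM with *Smad4* on, and 2.96 and 0.199 CPM with *Smad4* off. Of the 8 epithelial markers, 2 were thus called lower and 1 higher in Smad4-on cells, and 1 each way in Smad4-off cells. Basal-like PDAC genes had 4 of 10 tested called lower with *Smad4* on (median -0.37) and 2 with *Smad4* off (median 0.28). Of 6 tested liver secretory and other HNF4A and FOXA target genes, 2 were called lower with *Smad4* on and 1 with *Smad4* off, and *Vil1*, which encodes villin of the brush border, fell with *Smad4* on (-4.5 ± 0.302, edgeR adjusted p 0.000158). *Vil1* was lower in B87 than in B73 (-5.71 ± 0.238, edgeR adjusted p 3.05e-05). With *Smad4* on, 4 of the 6 were not called. Among these, *Apob* was 145 ± 71.1 CPM under SB505124 and 200 ± 2.49 CPM under TGFβ1 (SD, n = 2). The part of these markers in the changes of the 8 factors was not tested.

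**Figure D4:**
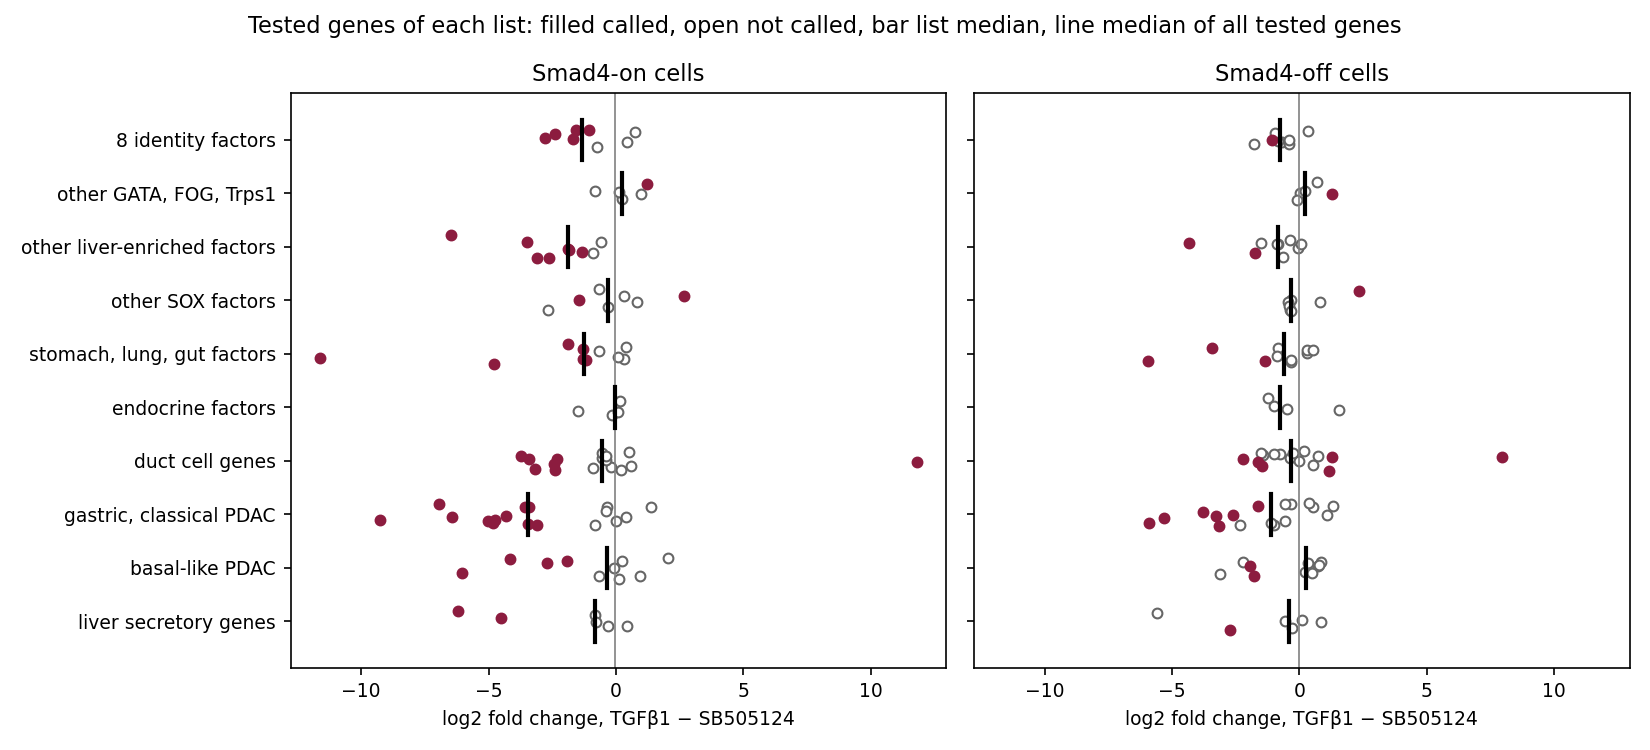
Log2 fold change with TGFβ1 against SB505124 of each tested gene of 10 lists, in Smad4-on (left) and Smad4-off cells (right). Filled points were called, black bars are list medians and the grey line is the median of all tested genes; the points beyond 9 in size belong to genes with 0 counts in every library of 1 group, whose position depends on the fit.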

How the data were processed

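RNA-seq libraries were made from poly(A) RNA with a kit that marks the strand and read as single-end 75-base reads. The submitters' processing notes name FastQC 0.11.5, Trimmomatic 0.36, STAR 2.5.3a and featureCounts 1.6.3, and reads were aligned to GRCm38 (mm10). The strand setting and the treatment of reads with several alignments are not given in the sources used here. The deposited table holds the authors' raw counts per gene, 1 column per library, with no pooling, and a deposited gene length, which was used only for RPKM. Of the 75-base stretches of each factor's GENCODE M21 transcripts, 0% occurred in another gene.

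Counts were tested with edgeR 4.0.16 in R 4.3.3 (TMM normalization, filterByExpr, quasi-likelihood F-test) in 1 model of the 8 libraries, with terms for group (4) and for line. Line differences in a response were tested by adding a line term for it. A call required a Benjamini-Hochberg adjusted p under 0.05 over all 14301 tested genes and a change over 2-fold, the study's thresholds. The SE of a log2 change was its size over the root of its F statistic. CPM were scaled to TMM library sizes, also for the floor of 3 counts, and per-line changes used log2 CPM (prior count 2). Overlap of values between groups was recorded for the 8 factors only and not over all tested genes. With 2 libraries per group, such a separation is a description and not a test. DESeq2, the study's tool, was run at version 1.42.0 as an alternative, with the line in its model. The line, named in every title, pairs the libraries of different groups, and the deviation of each line from its group mean was correlated across groups (r 0.642 to 0.774, median 0.758, 6 pairs of groups). The labels name no separate cultures within a line, so p-values measure only the spread between these libraries.

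On simulated counts of 14301 genes for *Smad4* on against off under TGFβ1, with 200 genes changed by a log2 fold change of 2, edgeR with the line recovered 100% and DESeq2 98.5%. Of their calls, 0.99% and 0.505% were false, and edgeR without the line recovered 76%. The planted changes were alike in both lines, so recovery of smaller changes or of changes that differ between the lines was not measured.

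The 8 factors, the lists and the markers were chosen with earlier results of these data known. Named genes were the 8 factors, family members, *Smad4*, of each list at most the 5 called genes of largest change at a mean log2 CPM of at least 1, and the 3 genes most like each factor. *Epcam*, *Adgre1*, *Cd3e*, *Lum*, *Zfpm1*, *Zfpm2*, *Apob*, *Nr0b2*, *Krt8*, *Krt18*, *Insm1*, *Ptf1a*, the other cell type markers and the genes that overlap a factor were named after their values were seen. Promoter windows of 5 of the 8 factors were taken from RefSeq (GRCm38.p6). Windows on chromosome 18, where *Gata6* lies, were not used for the factors. The windows were searched on both strands for 9 motifs, allowing overlaps: the SMAD motif CAGAC, the GATA motifs AGATAA and TGATAA, the FOXA motifs TGTTTAC and TGTTTGC, the HNF1 motif GTTAAT, the HNF4 motif CAAAGTCCA, the homeobox motif TAATTA and the SOX motif ACAAAG. A match describes letters, and no match says only that these letters are not in the window. Alternatives were DESeq2 size factors, no filter on low counts, no fold rule, no replicate block, a prior count of 0.5 and leaving out each library. Some items of the model and of the lists are not reported here.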

Additional observations from a re-analysis of the deposited data

Results flagged for a closer look

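The *Smad4* effect differed between the lines for *Gata5* and *Hnf4a*, by a test of the difference itself over 8 libraries. For *Gata5* the effect in B87 minus that in B73, averaged over treatments, was -2.38 on the log2 scale (edgeR adjusted p 0.0207). It kept its sign with each of the 8 libraries left out in turn (-2.68 to -2.19). Leaving out either library of a group gave nearly the same value, because the library that remains then carries no information on the line difference. For *Hnf4a* the value was -1.003 (edgeR adjusted p 0.0329), and it was -1.02 to -0.96 with each library left out. Without a library of either SB505124 group, *Hnf4a* lost its call and was just under 2-fold (-0.99 to -0.96). Each line gave 1 library per condition, so the 2 treatments of a line served as the repeats of its *Smad4* effect. A difference between lines cannot be told apart here from one between the cultures used.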

How the results depend on the processing

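With no replicate block, 3 factors instead of 5 were called lower with TGFβ1 in Smad4-on cells, where *Gata4* (adjusted p 0.0523) and *Gata5* (0.181) were lost, and the uncalled *Smad4* effect on *Gata5* under SB505124 turned to 0.33. The lines pair the libraries (median correlation 0.758), and the block changed no other call. DESeq2 with the line called 1 factor, *Hnf4a*, for *Smad4* under TGFβ1 and 1 for the interaction, beside 504 and 134 of all tested genes. With no filter on low counts, the numbers called were 1 for *Smad4* under TGFβ1, 2 for TGFβ1 in Smad4-off cells, 1 for the interaction, 2 between the lines and 1 for the line difference in the *Smad4* effect. With no fold-change rule they were 1 for *Smad4* under TGFβ1, 3 for TGFβ1 in Smad4-off cells and 2 between the lines.

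Leaving out each library in turn gave 3 to 6 factors called for TGFβ1 in Smad4-on cells, 0 to 1 in Smad4-off cells, 0 to 1 for *Smad4* under TGFβ1, 1 to 2 between the lines and 1 to 2 for the line difference in the *Smad4* effect. The lowest number in Smad4-on cells came without B87 under TGFβ1, and 0 in Smad4-off cells without B87 under TGFβ1. *Hnf4a* with *Smad4* on under TGFβ1 was called without a library of either SB505124 group (-1.23 to -1.17), with nearly the same value for either library of a group. Values that were not called changed sign for some library left out. For *Smad4* under SB505124 these ran from -0.068 to 0.36 (*Gata6*), -0.96 to 0.26 (*Sox9*) and -0.99 to 0.81 (*Gata5*). Under TGFβ1 they ran from -0.33 to 0.15 (*Pdx1*), -0.18 to 0.15 (*Foxa1*), -0.29 to 0.63 (*Sox9*) and -0.056 to 0.28 (*Gata4*). The interaction ran from -2.02 to 0.32 (*Gata5*) and -0.12 to 1.10 (*Sox9*), and TGFβ1 in Smad4-off cells from -0.16 to 0.77 (*Sox9*). The line difference ran from -0.076 to 0.13 (*Pdx1*), that in the *Smad4* effect from -0.29 to 0.25 (*Gata4*), -0.17 to 0.24 (*Foxa2*) and -0.17 to 0.46 (*Foxa1*), and that in the TGFβ1 response from -1.65 to 1.06 (*Gata5*), -0.18 to 0.37 (*Gata6*) and -0.47 to 0.58 (*Hnf4a*). The cause was not tested. DESeq2 size factors and a prior count of 0.5 changed no call or sign. Depth was thinnest for *Gata5* and *Foxa1*, whose lowest counts were 27 and 46.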
